A study of Homo sapiens with 5 samples.

Results

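Enzymes that make amino acids and feed one-carbon units into folate were examined in LNCaP, an established prostate cancer cell line of human origin that depends on androgen signalling, after exposure to celastrol, a plant triterpenoid that disturbs protein folding. The set was chosen by name and holds 10 genes, ASNS, PHGDH, PSAT1, PSPH, SHMT2, MTHFD2, CTH, CBS, ALDH18A1 and PYCR1, of 12165 genes that have a probe set naming them alone. They were read by 14 of 22215 probe sets on an Affymetrix array. A further probe set names ASNS together with other genes and was left out. All cells were in RPMI with 10% serum and, by the study's design text, at 50% confluency when treated. They received either 1.25 µM celastrol for 6 h (2 arrays) or the solvent DMSO for 6 h (3 arrays), with no genetic change given in the labels, which call the arrays of a group biological replicates. Whether replicates came from separate cultures is not stated beyond that word. Limma p-values therefore set a difference against the spread between these arrays only, that of the probe set and that pooled over all probe sets.

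Cells build most of these amino acids from glycolysis and from the citric acid cycle. PHGDH, PSAT1 and PSPH turn a glycolytic intermediate into serine in consecutive steps, and SHMT2 and MTHFD2 carry the carbon of serine into the mitochondrial folate pool that supplies purine and thymidine synthesis. ASNS makes asparagine from aspartate with nitrogen from glutamine, ALDH18A1 and PYCR1 make proline from glutamate, and CBS and CTH pass the sulfur of methionine to cysteine. Many of these genes are known targets of ATF4, a transcription factor whose translation increases when stress kinases phosphorylate the initiation factor eIF2alpha. ATF4 binds with C/EBP proteins to a composite element whose core was searched here as TGATGNAA.

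The promoter of ASNS is shown because this gene had the largest difference among the enzymes and holds that core. Promoter windows of 300 bases, from 250 before the start of transcription to 50 after it, were taken from RefSeq (GRCh38.p14) and searched on both strands, the reverse being TTNCATCA. Of the 10 enzymes 7 had a window (10 windows in all), matched by symbol, and PSPH, SHMT2 and PYCR1 had none. The core was found in 1 of the 7, ASNS, in 1 of its 2 windows (chr7:97872359-97872658, minus strand). It begins 68 bases before the start and reads TGATGAAA, in capitals below.
ASNS: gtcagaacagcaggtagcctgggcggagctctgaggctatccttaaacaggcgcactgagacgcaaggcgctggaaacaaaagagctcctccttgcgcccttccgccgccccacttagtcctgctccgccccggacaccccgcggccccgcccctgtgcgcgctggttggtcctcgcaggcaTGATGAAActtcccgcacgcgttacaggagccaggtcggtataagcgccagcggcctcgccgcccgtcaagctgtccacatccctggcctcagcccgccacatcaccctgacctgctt
The windows of PSAT1 (chr9:78296875-78297174, plus strand) and MTHFD2 (chr2:74198365-74198664, plus strand), the genes with the next largest differences, are given for comparison and hold no match, so no base is in capitals.
PSAT1: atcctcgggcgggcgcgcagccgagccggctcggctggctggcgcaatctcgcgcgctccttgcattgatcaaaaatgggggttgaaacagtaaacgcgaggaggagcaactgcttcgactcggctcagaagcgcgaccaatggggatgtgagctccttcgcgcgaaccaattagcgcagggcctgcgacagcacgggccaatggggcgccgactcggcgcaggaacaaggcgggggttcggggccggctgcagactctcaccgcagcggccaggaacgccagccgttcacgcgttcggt
MTHFD2: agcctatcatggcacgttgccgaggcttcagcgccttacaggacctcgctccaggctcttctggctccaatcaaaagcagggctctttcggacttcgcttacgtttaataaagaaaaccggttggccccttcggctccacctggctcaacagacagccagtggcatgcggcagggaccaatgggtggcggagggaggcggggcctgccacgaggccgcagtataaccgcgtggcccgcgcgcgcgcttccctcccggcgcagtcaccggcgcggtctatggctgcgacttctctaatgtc
Over all 35116 windows of this length 3.62% hold the core, and of the 9711 genes with both a window and a probe set of their own 3.44% do. A match is a description of letters and not a site shown to be bound.

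The array labelled DMSO replicate 3 did not have the profile of the other 4. Its Pearson correlation with each of them across probe sets was 0.843 to 0.844, against 0.994 to 0.998 among the others. Among luminal prostate markers, 9 of 10 measured were at least 2-fold lower on it than the mean of DMSO replicates 1 and 2, and 11 of 13 leukocyte and lymphoid markers were at least 2-fold higher. The B cell gene MS4A1 stood at 10.91 on it and at 4.19 to 4.52 elsewhere on the log2(intensity + 1) scale. KLK3, which encodes prostate-specific antigen, stood at 4.56 on it. It had 10.22 and 10.07 with celastrol and 10.89 and 10.71 on DMSO replicates 1 and 2. On the other 4 arrays the luminal markers were high (median 9.59 to 9.67) and the summed level of leukocyte markers was 62.0 on both celastrol arrays against 62.4 and 61.9 on DMSO replicates 1 and 2. With celastrol the median change of luminal markers was -0.14, with single markers from -1.08 to 0.27. The median was -0.0051 for leukocyte markers (-0.29 to 0.27), 0.0081 for fibroblast markers (-0.079 to 0.17) and 0.022 for endothelial markers (-0.14 to 0.052). The part of these markers in the results was not tested. In RNA of whole cultures, fewer cells of a type and less RNA per cell cannot be told apart. Celastrol was therefore compared with DMSO replicates 1 and 2, and replicate 3 is described apart.

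Most of the enzymes stood a little higher with celastrol, ASNS most of all, and none of the differences passed the test. The change, celastrol minus DMSO replicates 1 and 2 on the log2(intensity + 1) scale, was above 0 for 12 of 14 probe sets, where 48.7% of all probe sets were above 0. Its median was 0.13 over the 14 and 0.00 over all probe sets. By limma with Benjamini-Hochberg adjustment over the whole table, 0 of the 14 probe sets passed 0.05, where 2 of 22215 (0.00900%) did, and adjusted p of the enzymes ran from 0.149 to 0.718. When the dimmest 40% were set aside, again 0 of the 14 passed, where 0.908% of the 13329 kept did. Without adjustment 7 of the 14 had a limma p under 0.05, all 7 higher with celastrol and from 7 genes, against 5.60% of all probe sets higher and 13.2% in either direction. With any 1 of these arrays left out, fewer of the 14 were under 0.05. Each such fit leaves 1 array in a group and 1 residual degree of freedom. The share of all probe sets under 0.05 was not counted in those fits, so the lower counts cannot be set against it. The median change of the 14 ran from 0.13 to 0.18 with 1 array left out. Both celastrol arrays lay above both DMSO arrays for 9 probe sets of 8 genes, against 14.5% of all probe sets, and below them for 1, against 17.6%. An exact permutation test of 2 arrays against 2 cannot go below a two-sided p of 0.333, so single genes were tested with limma alone.

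**Figure D1:**
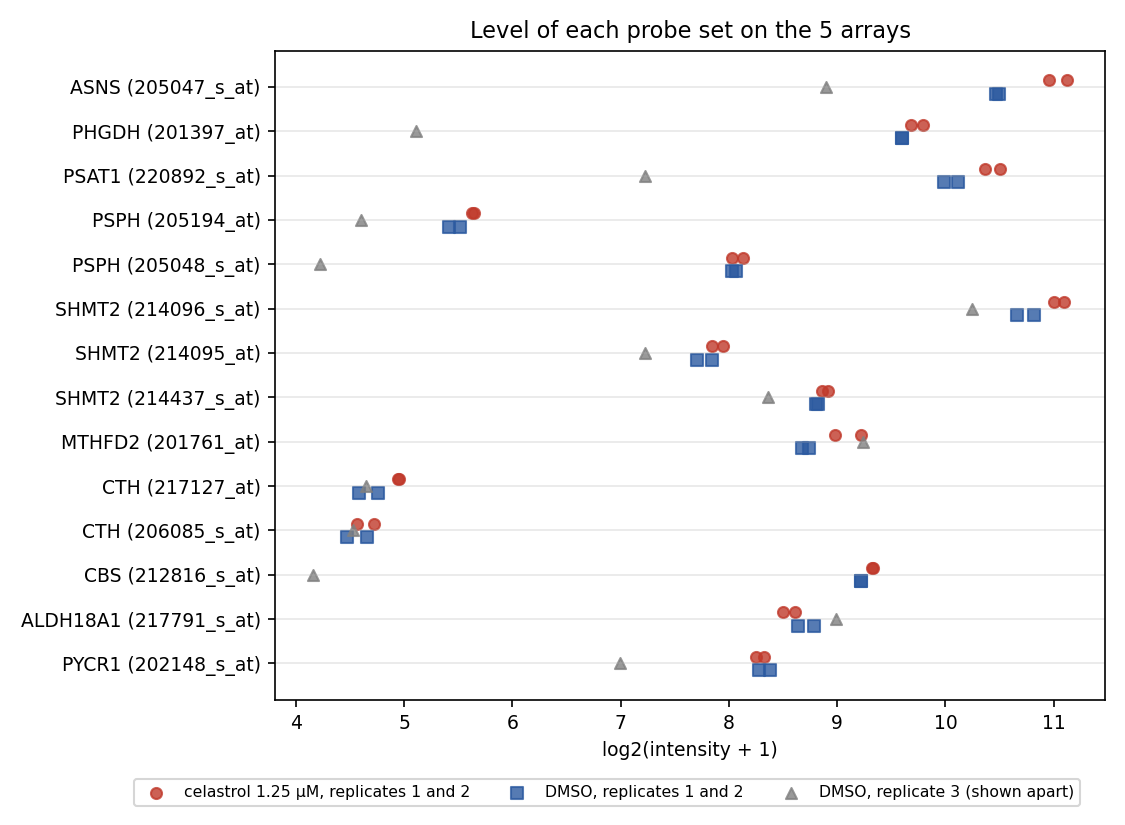
Level of the 14 probe sets of the 10 enzymes, as log2(intensity + 1) on the horizontal axis, on each of the 5 arrays (circles, celastrol; squares, DMSO replicates 1 and 2; triangle, DMSO replicate 3). Circles and squares lie within 1 log2 unit of each other in every row, while the triangle lies far to the left for PHGDH, PSAT1, 1 probe set of PSPH, and CBS; levels of different probe sets are not comparable.

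ASNS, asparagine synthetase, had intensities of 2229 and 1985 with celastrol and of 1411 and 1441 with DMSO. Both celastrol arrays were above both DMSO arrays, and the gap between the nearest pair was 0.46 on the log2 scale. The mean level went from 10.48 ± 0.02 (SD, n = 2) to 11.04 ± 0.12 (SD, n = 2), a change of 0.56 (SE 0.0724) or 1.47-fold, with a 95% interval of 1.26-fold to 1.73-fold. Among all probe sets 0.828% had a larger rise in value. It did not pass the threshold (limma adjusted p = 0.149), and its change stayed between 0.48 and 0.64 with any 1 of the 4 arrays left out.

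In the serine pathway the changes of the probe sets ran from 0.03 to 0.39, and a difference between steps was not tested. PHGDH, the first enzyme, had intensities of 888 and 819 with celastrol and the same deposited value of 774 on both DMSO arrays. The arrays did not overlap, but the change was 0.14 (SE 0.0511), 1.10-fold with a 95% interval of 0.982-fold to 1.23-fold (limma adjusted p = 0.456). Without celastrol replicate 1 it was 0.080. PSAT1, the aminotransferase of the middle step, had 1455 and 1321 with celastrol and 1012 and 1108 with DMSO. These groups were apart by 0.25 at their nearest, and the change of 0.39 (SE 0.0805), or 1.31-fold with an interval of 1.09-fold to 1.57-fold, did not pass (limma adjusted p = 0.239). PSPH, the phosphatase that releases serine, was read by a bright and a dim probe set. The bright one (205048_s_at) had 259.8 and 279 with celastrol and 259.8 and 266 with DMSO, where celastrol replicate 1 and DMSO replicate 1 hold an identical value. The groups overlapped there, with a change of 0.03 (SE 0.0481). The dim one (205194_at) had 48.9 and 48.4 against 41.7 and 44.6, with no overlap and a change of 0.17 (SE 0.0443, limma adjusted p = 0.308).

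Of the mitochondrial folate enzymes, MTHFD2 had the larger difference. MTHFD2, a dehydrogenase and cyclohydrolase of methylene-folate, had intensities of 594 and 504 with celastrol and 407 and 428 with DMSO. The celastrol arrays were both higher, yet they were also the most spread pair among the enzymes, with an SD of 0.17 on the log2 scale. The change was 0.39 (SE 0.103), 1.31-fold with a 95% interval of 1.04-fold to 1.65-fold (limma adjusted p = 0.314), and it ran from 0.27 to 0.51 with 1 array left out. SHMT2, which splits serine into glycine and a one-carbon unit, was read by 3 probe sets that differed in size. The brightest (214096_s_at) had 2185 and 2047 with celastrol against 1620 and 1801 with DMSO, a change of 0.31 (SE 0.0759, limma adjusted p = 0.288) without overlap. In 214437_s_at, with 482 and 464 against 447 and 453, the groups did not overlap and the change was 0.07 (SE 0.0301), or 0.044 without celastrol replicate 1. In 214095_at, with 246 and 229 against 229 and 207, celastrol replicate 2 and DMSO replicate 1 hold an identical value, and the change was 0.12 (SE 0.0749), or 0.053 without DMSO replicate 2, 0.071 without celastrol replicate 1 and 0.19 without DMSO replicate 1. All 3 were above 0, and none passed.

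The sulfur enzymes differed by little or were dim. CBS, which joins homocysteine to serine, had 637 and 642 with celastrol and an identical 593 on both DMSO arrays. The change was only 0.11, 1.08-fold with a 95% interval of 1.03-fold to 1.12-fold. Replicates lay close, and its limma SE was 0.0187 (adjusted p = 0.194), a value that also draws on the variance of all probe sets. After quantile normalization the SE was 0.0384. CTH, which releases cysteine, was dim in both of its probe sets, brighter than only 42.2% and 48.0% of all probe sets. In 217127_at it had 29.8 and 29.9 with celastrol and 26.1 and 23.0 with DMSO, a change of 0.28 (SE 0.0757, limma adjusted p = 0.325) without overlap. In 206085_s_at it had 22.7 and 25.3 against 21.2 and 24.2, which overlap, with a change of 0.08 (SE 0.0993). The size of both depends on the offset: with log2(value + 16) they were 0.18 and 0.050.

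The proline enzymes were the 2 with changes below 0. ALDH18A1, which makes the precursor of proline from glutamate, had 360.2 and 389 with celastrol and 439.9 and 398 with DMSO. Both celastrol arrays were lower, and the change was -0.16 (SE 0.0768), with a 95% interval of 0.754-fold to 1.06-fold (limma adjusted p = 0.591). It was -0.089 without DMSO replicate 1 and -0.11 without celastrol replicate 1. PYCR1, which completes proline, had 319 and 303 against 333 and 308, which overlap, with a change of -0.04 (SE 0.0576, limma adjusted p = 0.705). Its interval of 0.854-fold to 1.10-fold leaves out a rise of the size measured for ASNS, though a difference between the genes was not tested.

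**Figure D2:**
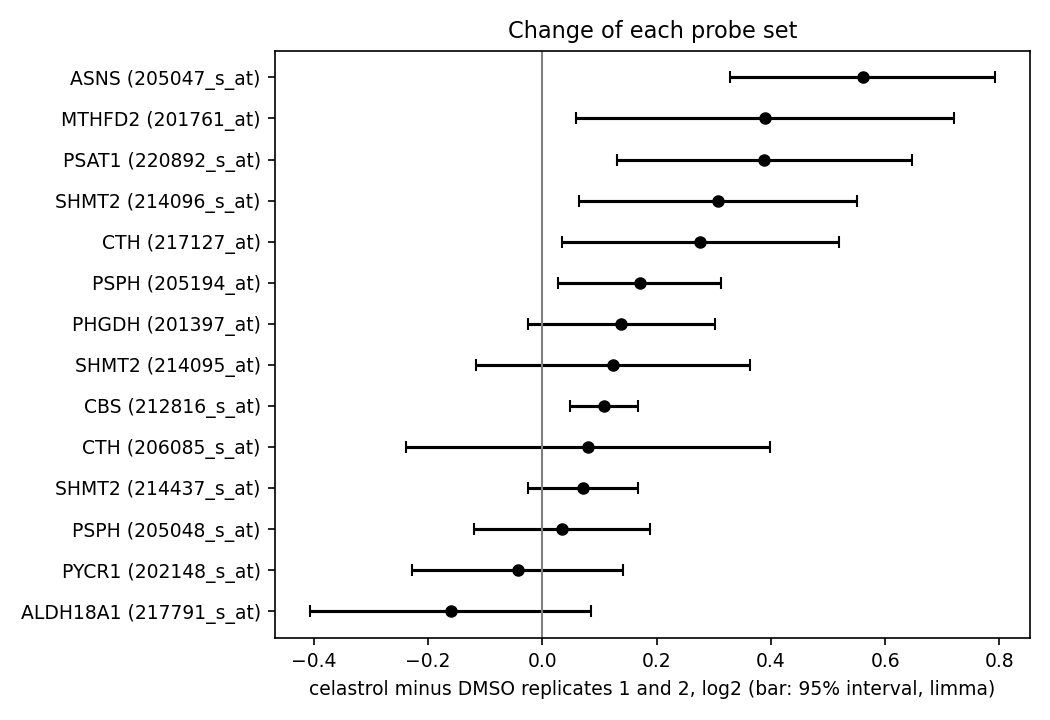
Change of each of the 14 probe sets, celastrol minus DMSO replicates 1 and 2 on the log2 scale, ordered by size, with 95% intervals from limma that are not adjusted for the number of probe sets. ASNS stands highest at 0.56, followed by MTHFD2 and PSAT1 at 0.39; ALDH18A1 and PYCR1 lie below 0.

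Other genes of these pathways were read by 1 probe set a gene, the brightest, and in each of the next 4 lists most genes had changes below 0. On that basis the 10 enzymes had a median change of 0.21, or 0.15 with the mean of a gene's probe sets. Of the 10, 8 were above 0 (48.2% of all genes). At an unadjusted limma p under 0.05, 6 were higher and 0 lower, where 6.30% of all genes were higher and 8.80% lower. After adjustment 0.0164% of all genes passed. Of 19 other measured genes of serine, glycine and folate metabolism 4 were above 0 and 14 below, with a median of -0.05, 0 higher and 5 lower at that unadjusted p. TYMS, thymidylate synthase, had 653 and 636 with celastrol against 768 and 794 (change -0.28, limma adjusted p = 0.136). DLD, the dehydrogenase shared by the glycine cleavage system, stood at -0.24, while MTHFS at 0.06 and FTCD, near the floor, at 0.08 had the smallest p on the higher side. The highest change in that list was 0.08, below the 0.39 of MTHFD2 and the 0.31 of the brightest SHMT2 probe set.

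Among neighbours of the other enzymes most changes were also below 0. This held for 13 of 18 methionine and sulfur genes, 10 of 14 aspartate, glutamate, proline and alanine genes and 15 of 22 breakdown genes. Of the 18 methionine and sulfur genes 1 was higher and 2 were lower at an unadjusted limma p under 0.05, with a median of -0.05. Of all genes 6.30% were higher and 8.80% lower at that p. MTRR, which reactivates methionine synthase, stood at 0.14 and the dim BHMT2 at 0.13, and methionine synthase itself, MTR, at -0.21 and MSRA, a methionine sulfoxide reductase, at -0.27. Of 14 genes of aspartate, glutamate, proline and alanine metabolism 2 were higher and 3 lower, with a median of -0.06. GOT1, the cytosolic aspartate aminotransferase that can supply ASNS with aspartate, had 697 and 676 with celastrol against 529 and 495 with DMSO, a change of 0.42 (limma adjusted p = 0.136), and P4HA1, a collagen prolyl hydroxylase, stood at 0.46. GLUD1, the glutamate dehydrogenase, had 577 and 581 against 926 and 943, a change of -0.69 (limma adjusted p = 0.0622), and ARG2, an arginase, stood at -0.26. GLUD1 passed where the dimmest 40% of probe sets were left out (limma adjusted p = 0.0372; 0.470% of genes passed in that direction). Of 22 genes of amino acid breakdown 0 were higher and 5 lower, with a median of -0.05, IVD at -0.44 and MCCC2 at -0.24 on one side and HIBCH at 0.14 and AASS at 0.08 on the other. With limma over all probe sets, 0 genes of these 4 lists passed after adjustment.

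Among ATF4 pathway factors and amino acid transporters the differences reached further up, to 2.05 for DDIT3 and 1.71 for SLC7A11 against 0.56 for ASNS. Of 17 measured ATF4 pathway genes 15 were above 0, 12 were higher and 0 lower at an unadjusted limma p under 0.05, and the median change was 0.66. At that p 6.30% of all genes were higher and 8.80% lower. DDIT3, which encodes the stress factor CHOP, had 587 and 546 with celastrol against 127 and 146, and CEBPB and CEBPG, partners of ATF4, had changes of 0.93 and 0.80. EIF4EBP1, a brake on translation, was the 1 gene below 0, at -0.01. Over all probe sets 0 of the 17 passed, with limma adjusted p of 0.0622 to 0.0696 for DDIT3, CEBPB, CEBPG, CHAC1 and DDIT4. With the dimmest 40% left out these 5 passed (limma adjusted p 0.0333 to 0.0388), where 0.569% of all genes passed as higher, and ASNS still did not (adjusted p = 0.0929). Of 12 transporters 8 were higher and 1 lower at an unadjusted p under 0.05, with a median of 0.36. SLC7A11, the cystine carrier, and its partner SLC3A2 had changes of 1.71 and 1.35 and passed with that filter (limma adjusted p = 0.0315 and 0.0356). SLC1A1 and SLC36A1 stood at -0.18 and -0.11. Of 18 cytosolic aminoacyl-tRNA synthetases, which load amino acids onto tRNA, 9 were higher and 0 lower, and their median of 0.20 was close to the 0.21 of the enzymes. GARS1 and TARS1 stood at 0.48 and 0.43 and QARS1 and KARS1 at -0.11 and -0.06, and 0 passed with limma in either fit. These comparisons between lists are of counts and medians on the same 4 arrays, and a difference between lists was not tested.

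**Figure D3:**
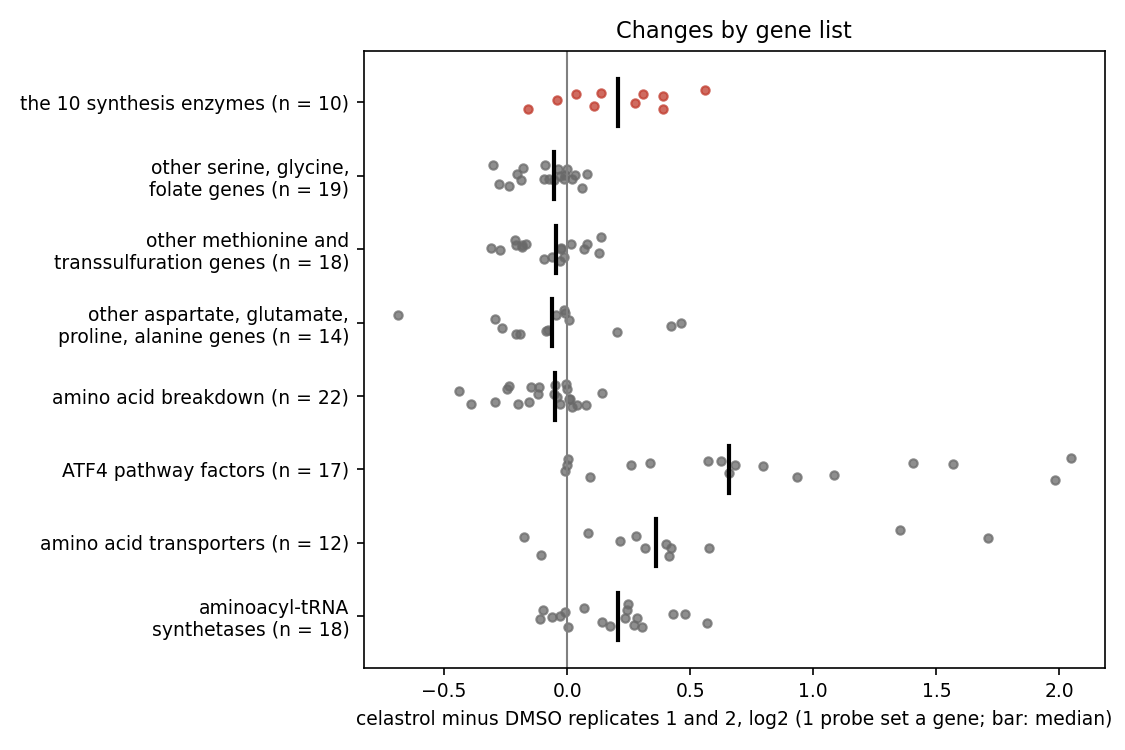
Change of every measured gene of 8 lists, celastrol minus DMSO replicates 1 and 2 on the log2 scale, with 1 probe set a gene and a bar at each median; vertical scatter within a row has no meaning. The 10 enzymes (red, median 0.21) lie near the aminoacyl-tRNA synthetases (0.20) and to the left of many ATF4 pathway genes (0.66).

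The core searched in the promoters was spread unevenly over these lists. It was in 7 of 15 aminoacyl-tRNA synthetases with a window, 5 of 11 transporters, 3 of 15 ATF4 pathway genes, 1 of 11 aspartate, glutamate, proline and alanine genes and 1 of 19 breakdown genes. It was in 0 of 17 serine, glycine and folate genes and 0 of 14 methionine and sulfur genes. The match of largest change in each list is printed with its surrounding bases, the core in capitals, so that it can be set beside that of ASNS.
ASNS: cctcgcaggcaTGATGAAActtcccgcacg
GOT1: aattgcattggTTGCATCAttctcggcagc
BCAT1: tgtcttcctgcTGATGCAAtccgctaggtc
ATF3: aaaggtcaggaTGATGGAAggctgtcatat
SLC3A2: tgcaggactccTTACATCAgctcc
CARS1: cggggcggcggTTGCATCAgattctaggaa
GOT1, SLC3A2 and CARS1 hold the reverse form. The matches begin 68, 198, 48, 191 and 2 bases before the start in ASNS, GOT1, BCAT1, ATF3 and CARS1. That of SLC3A2 begins after the start, near the end of its window, so fewer bases are printed. In the order printed the changes of these genes were 0.56, 0.42, 0.02, 1.98, 1.35 and 0.57. Every gene of these lists with the core had a change above 0, the smallest being that of BCAT1. Most measured genes of the lists with most matches were above 0 as well, 13 of 18 synthetases, 10 of 12 transporters and 15 of 17 ATF4 pathway genes. Whether the core goes with the change in these lists was not tested. Over all genes with a window the median change was 0.015 with the core and -0.0018 without it.

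On DMSO replicate 3 some of the enzymes were far lower than on the other DMSO arrays and others were near them or higher. Of the 14 probe sets 6, from 6 genes, were at least 2-fold lower on it than the mean of DMSO replicates 1 and 2, where 10.1% of all probe sets were, and 0 were at least 2-fold higher, where 7.52% were. CBS had an intensity of 16.9 on it against 593 on both others, PHGDH 33.6 against 774, and the bright probe set of PSPH 17.7 against 259.8 and 266. These 3 values lie in the dim range of the array, so no fold is given for them. PSAT1 had 149 and was 7.08-fold lower, ASNS had 474 and was 3.00-fold lower and PYCR1 had 127 and was 2.52-fold lower. All 3 serine pathway genes were at least 2-fold lower on this array in 1 probe set each; the dim probe set of PSPH was 1.81-fold lower. The folate enzymes were not: the 3 probe sets of SHMT2 were 1.37-fold to 1.46-fold lower, and MTHFD2, at 602, was 1.44-fold higher than in the other DMSO arrays and slightly above both celastrol arrays. ALDH18A1, at 508, was 1.21-fold higher. CTH, dim on every array, had 24.1 and 22.0 in its probe sets, within the range of the other DMSO arrays. With 1 array there is no test of these differences. With all 5 arrays the change of ASNS was 1.09 (SE 0.602), that of PHGDH 1.63 (SE 1.69) and that of CBS 1.79 (SE 1.91), and limma called 0 of the 14 and 0.00% of all probe sets.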

How the data were processed

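Per the labels' protocols, total RNA was made into biotinylated cRNA by the Affymetrix procedure. The authors deposited linear intensities, 1 for each probe set on each array. The submitters' processing notes name RMA, without a version. Groups follow the sample titles; the description field of DMSO samples names celastrol. The platform annotation gives 1 gene for 19724 probe sets, several for 568 and none for 1923. Entrez ID matched 19707 to RefSeq names and changed 0 symbols.

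Values were taken as log2(intensity + 1) with no further normalization. Celastrol replicates 1 and 2 were compared with DMSO replicates 1 and 2 in limma 3.58.1 (R 4.3.3; lmFit, eBayes, 2 residual degrees of freedom), two-sided, over all 22215 probe sets with a threshold of 0.05. Every probe set of the 10 enzymes is given. Other genes use the probe set of highest mean over the 4 arrays; of each list, those passing and the 2 of smallest p a direction are named. ATF3, BCAT1 and CARS1 were named for their promoters after their values were seen. The enzymes, the lists, the motif, the test and the leaving out of DMSO replicate 3 were chosen with earlier results of these data known. The fit was tested on simulated data with independent noise and no identical values between arrays, so that test does not cover the ties in these data. Between 17.1% and 19.3% of probe sets hold identical values in pairs of the 4 arrays, which can make a spread too small. Over probe sets, replicate 1 minus replicate 2 of celastrol and of DMSO had a correlation of r = -0.0197. Such a correlation over all probe sets cannot decide whether cultures were paired by replicate number. The number of arrays limits the precision.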

Additional observations from a re-analysis of the deposited data

How the results depend on the processing

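With limma 0 of the 14 probe sets passed under any of 13 alternatives, among them a replicate block (0 passed). Without adjustment a limma p under 0.05 was found for 8 after quantile normalization or median centring, 7 with a dim filter, log2(value + 16) or another variance model, 2 with the replicate block and 1 on all 5 arrays, all higher. The share of all probe sets under 0.05 without adjustment was not counted in these fits. These counts therefore cannot be read as above or near that share. Over 13 alternatives, those with 1 array left out included, 177 of 181 values kept their direction. PYCR1 turned to 0.40 on all 5 arrays. With 1 array left out PYCR1 ran from -0.098 to 0.011, the bright probe set of PSPH from -0.017 to 0.086 and the dimmer one of CTH from -0.012 to 0.17. The median change of the 14 was 0.43 on all 5 arrays and 0.13 to 0.18 with 1 array left out. The number of all genes passing was 2, against 87 and 84 with the dimmest 40% left out by the mean over 5 or 4 arrays, 125 with quantile normalization, 92 with median centring, 29 with log2(value + 16), 1 with a variance trend, 0 on all 5 arrays, 0 with the replicate block and 0 to 0 with 1 array left out. Of these, 1 of 2 was higher in the comparison as reported, 77 of 125 after quantile normalization, 57 of 92 after median centring and 19 of 29 with log2(value + 16). With the dim filter over 4 arrays the median of methionine and sulfur genes was -0.13, and 5 ATF4 pathway genes, 2 transporters and 1 aspartate, glutamate, proline and alanine gene passed. With the mean of a gene's probe sets 5 ATF4 pathway genes and 2 transporters passed. The median was then 0.25 for the transporters, 0.19 for the synthetases and 0.15 for the 10 enzymes. Other probe sets whose change moved by over 1.5 times with 1 array left out or with log2(value + 16) have those values beside them in the account above. The causes were not tested. Without a detection call, dim probe sets such as those of CTH limit what can be read.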
